A study of Mus musculus with 2 samples.

Results

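Wild-type (WT) mouse microglia of ordinary sequencing depth were described here from 1 droplet single-cell RNA library. A member was a WT barcode that held 2000 to 6000 UMIs and 500 genes or more, with mitochondrial genes taking no more than 10% of its UMIs. A UMI is a random tag by which copies of the same captured molecule are counted once. This rule took 2353 of the 3504 WT barcodes (67.2%), out of 8807 barcodes in the series. The cells came from 3-month-old female C57BL/6 mice with no treatment, 3 animals pooled before flow sorting, and had been isolated from brain without enzymes. The gate of the sort is not given in the sources used here. A library titled IRF8KO, which completes the series, was not compared with the WT cells here. All WT cells form 1 pool in 1 library, so no value has a replicate and no test was possible. Intervals below are 95% and cover counting error only, exact Poisson for levels and exact binomial (Clopper-Pearson) for shares of cells.

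Microglia are the resident macrophages of the brain parenchyma. They descend from yolk sac progenitors, are maintained by signalling through the CSF1 receptor, and take on their brain-specific state under TGF-beta, with the transcription factors PU.1 (gene Spi1), IRF8, MEF2C and SALL1 among the regulators of that state. They survey the tissue with motile processes, sense ATP, ADP and fractalkine released by neurons, tag synapses with complement C1q, and degrade what they engulf in lysosomes.

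The promoters of 7 genes are shown first. The most abundant transcript (Cst3), the purinergic receptor that marks microglia (P2ry12) and chains of C1q (C1qb, C1qc) carry main features of the levels described here. The lysosomal proteases Ctss, Ctsd and Ctsa were taken because their windows hold a match to a motif given below. The sequences are RefSeq's, from GRCm38.p6, 250 bases before to 50 after a transcript start, written 5′ to 3′ on the gene's strand. Capitals mark a match on either strand to GAGGAAGT, a core bound by PU.1, or to TCACGTGA, the E-box read by factors of the MITF/TFE family. The letters in capitals read ACTTCCTC where GAGGAAGT lies on the opposite strand. The motifs do not overlap each other in these windows. Ctsa has more than 1 listed start, and the one holding a match is shown.
Cst3, chr2:148875463-148875762, - strand: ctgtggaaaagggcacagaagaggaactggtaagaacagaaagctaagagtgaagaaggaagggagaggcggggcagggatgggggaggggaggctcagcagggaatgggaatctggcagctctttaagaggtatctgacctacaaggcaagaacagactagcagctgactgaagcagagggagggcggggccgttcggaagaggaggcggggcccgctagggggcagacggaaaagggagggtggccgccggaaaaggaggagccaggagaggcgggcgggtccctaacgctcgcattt
P2ry12, chr3:59262936-59263235, - strand: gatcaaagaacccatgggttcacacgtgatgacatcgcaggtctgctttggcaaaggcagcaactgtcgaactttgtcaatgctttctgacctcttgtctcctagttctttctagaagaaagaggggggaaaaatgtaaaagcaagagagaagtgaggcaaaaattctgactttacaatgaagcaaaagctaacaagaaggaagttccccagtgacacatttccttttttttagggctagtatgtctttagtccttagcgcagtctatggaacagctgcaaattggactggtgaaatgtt
C1qb, chr4:136886151-136886450, - strand: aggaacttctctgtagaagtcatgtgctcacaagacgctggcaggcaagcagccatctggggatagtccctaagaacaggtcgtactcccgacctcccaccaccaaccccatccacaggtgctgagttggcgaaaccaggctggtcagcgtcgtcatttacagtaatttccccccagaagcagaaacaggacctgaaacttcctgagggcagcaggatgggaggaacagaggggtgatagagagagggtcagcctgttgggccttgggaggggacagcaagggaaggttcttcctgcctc
C1qc, chr4:136892865-136893164, - strand: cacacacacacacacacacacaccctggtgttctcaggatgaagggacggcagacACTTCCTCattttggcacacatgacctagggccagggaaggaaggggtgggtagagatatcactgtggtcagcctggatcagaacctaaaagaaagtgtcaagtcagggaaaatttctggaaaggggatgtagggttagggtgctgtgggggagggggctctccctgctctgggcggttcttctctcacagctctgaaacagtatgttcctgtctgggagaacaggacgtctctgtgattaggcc
Ctss, chr3:95526536-95526835, + strand: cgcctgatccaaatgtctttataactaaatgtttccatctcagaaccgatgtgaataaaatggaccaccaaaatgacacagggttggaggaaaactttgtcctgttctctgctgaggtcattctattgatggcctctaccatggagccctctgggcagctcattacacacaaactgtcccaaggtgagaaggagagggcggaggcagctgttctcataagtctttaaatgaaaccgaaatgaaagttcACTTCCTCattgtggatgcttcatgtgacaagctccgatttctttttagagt
Ctsd, chr7:142387778-142388077, - strand: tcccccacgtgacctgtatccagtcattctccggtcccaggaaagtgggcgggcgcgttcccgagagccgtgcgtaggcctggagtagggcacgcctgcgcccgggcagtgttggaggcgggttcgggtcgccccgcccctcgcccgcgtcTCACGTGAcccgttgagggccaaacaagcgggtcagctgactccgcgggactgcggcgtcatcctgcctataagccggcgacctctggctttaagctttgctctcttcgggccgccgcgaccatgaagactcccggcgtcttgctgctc
Ctsa, chr2:164833523-164833822, + strand: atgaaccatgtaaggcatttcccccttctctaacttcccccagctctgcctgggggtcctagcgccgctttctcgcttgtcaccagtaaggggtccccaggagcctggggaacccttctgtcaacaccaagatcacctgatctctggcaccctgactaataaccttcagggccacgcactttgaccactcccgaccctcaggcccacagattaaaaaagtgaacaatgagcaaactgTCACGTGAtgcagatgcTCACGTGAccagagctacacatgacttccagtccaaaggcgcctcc
In C1qc the PU.1 core began 195 bases before the start site, and in Ctss 2 bases before it. Ctsd held an E-box beginning 99 bases before the start site, and Ctsa held 2, one beginning 13 bases before it and the other 4 bases after it. None of these letters occurred in the windows of Cst3, P2ry12 or C1qb. Over all 32851 listed promoters of 27025 genes, 3.2% held the PU.1 core and 0.974% the E-box. Of a list of 35 lysosomal genes, 27 matched a counted entry. Among promoters of these genes, 4 of 30 held the PU.1 core (13.3%) and 3 of 30 the E-box (10.0%). Among promoters of the 6700 matched genes with at least 10 CPM (the unit is explained with the levels) these shares were 3.49% and 2.24%. For genes with at least 1000 CPM, without mitochondrial and ribosomal protein genes, they were 9.09% (6 of 66) and 4.55% (3 of 66). For the genes of the microglial state described below they were 8.33% (2 of 24) and 4.17% (1 of 24). The 46 promoters of lineage transcription factors held the PU.1 core in 0 cases. Some windows with a match are not shown. That of the lysosomal gene Gla, at 3.51 CPM, held E-boxes beginning 228 and 195 bases before the start site. It also held the PU.1 core beginning 148 bases before it. A match describes the letters only. Tmem119, C1qa, Ccl4 and Ctsb had no entry in the table.

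The median member held 3046 UMIs (quartiles 2591 and 3669) and 1619 genes (range 959 to 2740), with 2.08% mitochondrial UMIs. Together the members held 7695096 UMIs, 41.1% of the WT library. Levels are given in CPM, a gene's UMIs summed over the members and scaled to a common total of 1000000, so that 1 UMI per cell equals 306 CPM. A UMI stands for a molecule, so levels were not divided by gene length. At the edges of the rule, 58 members lay within 100 UMIs above the lower bound and 76 WT barcodes within 100 UMIs below it, while 25 members lay within 100 UMIs below the upper bound and 22 barcodes within 100 above it. In the UMI window 3 barcodes were left out for holding fewer than 500 genes and 0 for mitochondrial UMIs. The libraries shared 5 barcodes, 3 of them members.

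The markers given for these cells were present. P2ry12 (ENSMUSG00000036353; chromosome 3, 59216272 to 59262871, - strand, GRCm38), the ADP receptor that steers process movement, reached 3675 CPM (3633 to 3719) and had a UMI in 99.5% of cells (99.2 to 99.8), with a median of 11 UMIs and a highest of 38 in a cell. Tmem119 (ENSMUSG00000054675; chromosome 5, 113793729 to 113800516, - strand), a membrane protein used to tell microglia from other macrophages, stood at 1378 CPM (1352 to 1405) and was seen in 95.9% of cells. Sall1 (ENSMUSG00000031665; chromosome 8, 89027235 to 89044162, - strand), a zinc finger regulator of microglial identity, stood at 458 CPM (443 to 473) and was seen in 74.5% of cells (72.7 to 76.3). No Sall1 UMI was found in 599 cells, where counting at this mean level would leave 569.2 cells without one. The number of cells without a Sall1 UMI was thus close to what depth alone gives. The 10 microglia markers held 2.8% of UMIs in the median cell, with 0.1% in the lowest cell and 6.1% in the highest.

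Markers of other cell types were scarce or limited to a few genes. All 8 T and NK cell markers were at 0, which allows up to 0.39 CPM each (3 counts). The 8 neutrophil markers summed to 9 UMIs, the 8 neuronal markers to 17, the 5 erythroid markers to 21 and the 6 monocyte markers to 55, of which Ccr2 held 34. The 9 border macrophage markers summed to 81 UMIs, of which Mrc1 held 73, with Cd163, Lyve1, Ms4a7, F13a1 and Clec12a at 0. The B cell, astrocyte, endothelial and oligodendrocyte lists stood above this level through 1 to 3 genes each.

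Ighm, the immunoglobulin mu heavy chain, stood at 247 CPM and in 51.6% of cells, while the B cell genes Cd79a and Ms4a1 were at 0. Cd79b, a B cell receptor subunit, stood at 48.7 CPM. Slc1a3, the glutamate transporter of astrocytes, held 1570 of the 1595 UMIs of the astrocyte list, and Gfap and Aqp4 had 1 UMI each. Pecam1, an adhesion molecule of endothelium and leukocytes, held 387 of 391 endothelial UMIs, with Cldn5 at 0. Cnp, Mag and Mbp held 306, 257 and 209 of the 813 UMIs of the oligodendrocyte list, and Mog was at 0. Ighm was seen in 51.6% of cells where its level gives 54.3% by counting, and Slc1a3 in 43.9% where it gives 47.8%, so their UMIs were spread over the cells rather than held by a few. Free RNA from other cells can put UMIs into any droplet, and its part in these genes was not tested.

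Many of the most abundant genes encoded secreted, lysosomal or surface proteins, but Malat1, Tmsb4x and Actb also stood among them. The 20 most abundant genes held 18.8% of UMIs, and 436 genes held the first 50%. Of 31053 features, 14583 had a UMI in the members, 8440 reached 10 CPM (27.2%), 1850 reached 100 CPM (5.96%), 102 reached 1000 CPM and 4 reached 10000 CPM. Protein-coding genes other than ribosomal protein and mitochondrial ones held 86.5% of UMIs, 87 ribosomal protein genes 6.88%, 1715 long non-coding genes 4.39% and 13 mitochondrial genes 2.23%.

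Cst3, cystatin C, a secreted inhibitor of cysteine proteases, was the most abundant gene by a wide margin. It reached 53326 CPM (53162 to 53489), 5.33% of all UMIs. A cell held from 5 to 528 Cst3 UMIs, with a median of 162. Malat1, a nuclear long non-coding RNA, followed at 31612 CPM and Tmsb4x, the actin-binding thymosin beta-4, at 13504 CPM. The complement chains C1qa, C1qb and C1qc stood at 9950, 8107 and 6230 CPM. The proteases Ctsd (7405 CPM), Ctss (5682 CPM) and Lgmn (3256 CPM) came next among lysosomal products. Actb (5244 CPM) and Marcks (3108 CPM) act on the actin cortex. The receptors Cx3cr1, Csf1r and P2ry12, the P-selectin ligand Selplg, the matrix protein Sparc and the tetraspanin Cd81 stood between 2964 and 4547 CPM. Itm2b, a membrane protein that inhibits amyloid formation, stood at 3974 CPM, and Xist, which silences an X chromosome in female cells, at 2760 CPM.

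**Figure D1:**
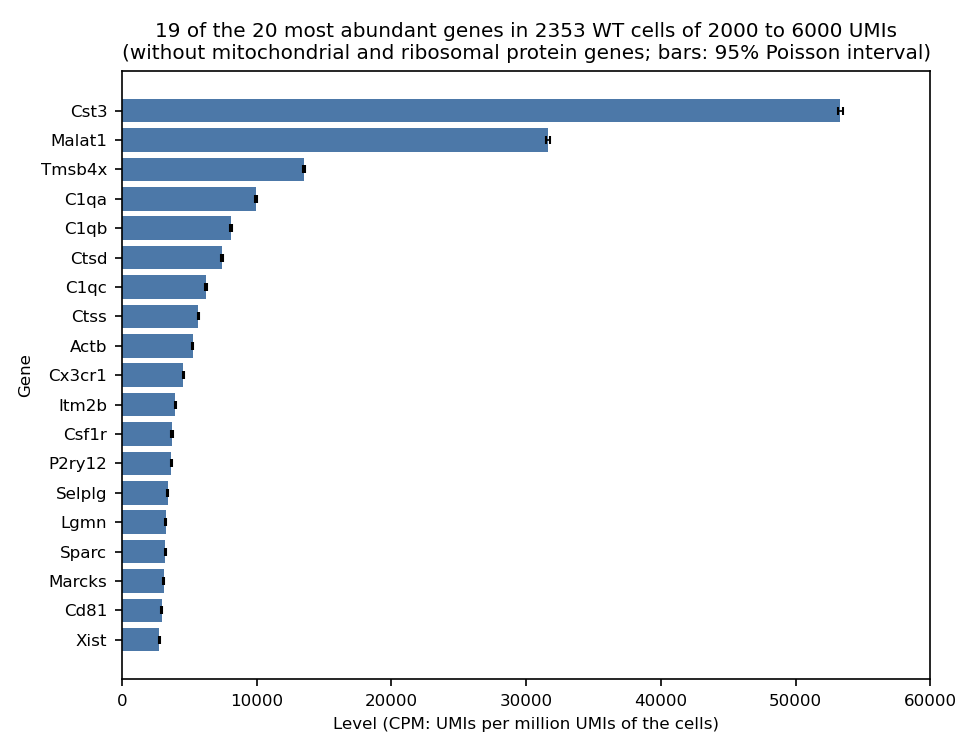
Level in CPM (x axis, linear) of genes among the 20 most abundant, without mitochondrial and ribosomal protein genes (y axis), over 2353 WT cells; black bars are 95% Poisson intervals. Cst3 at 53326 CPM stands apart from Malat1 at 31612, and from Selplg down to Xist the genes lie between 3409 and 2760.

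Detection across cells followed the level closely. Only Cst3, C1qb, Itm2b and Malat1 had a UMI in every member, at 174, 26.5, 12.998 and 103 UMIs per cell. After every cell was thinned to 2000 UMIs, 377 genes (1.21% of features) were seen in at least 50% of cells, 71 in at least 90% and 22 in at least 99%, with a median of 1190 genes per cell. Without thinning 650 genes were seen in at least 50% of cells. At the other end, 3606 genes had UMIs in 10 cells or fewer. Irf8 was seen in 86.2% of cells where its level of 721 CPM gives 88.7% by counting, and Spi1 in 72.7% where 434 CPM gives 74.0%. Genes far below this expectation included Apoe (35.02% against 74.3%), Kcnq1ot1 (47.3% against 64.5%), Ccl4 (2.93% against 30.3%) and Ccl3 (4.25% against 15.004%).

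**Figure D2:**
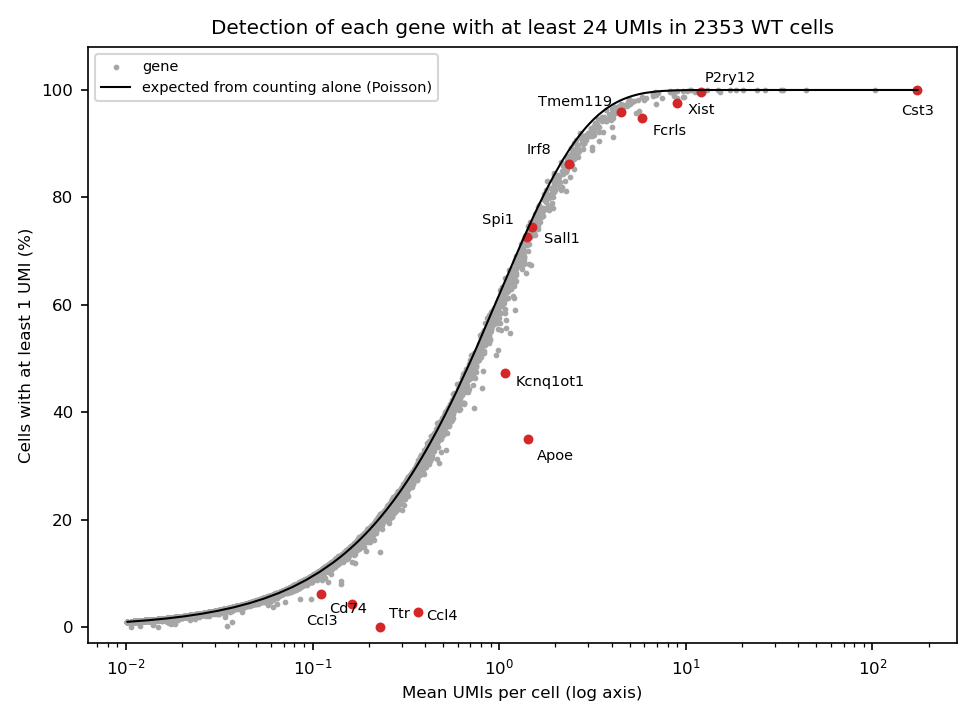
Share of cells with at least 1 UMI (y axis, %) against mean UMIs per cell (x axis, log) for each gene with at least 24 UMIs in the 2353 WT cells (grey), with the share that counting alone gives (line) and named genes in red. Irf8, Spi1 and Sall1 lie near the line, while Apoe (35.02% against 74.3%), Ccl4, Ccl3, Cd74 and Ttr lie far below it.

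The genes of the microglial state were measured through 25 members, all of which reached 10 CPM and 100 CPM, where 27.2% and 5.96% of all features did. Their median was 1770 CPM, beside 0 over all features and 16.2 over features with a UMI. Together they held 10.7% of UMIs, of which Cst3, a member of the list, held 5.33% of UMIs by itself. This list, like those that follow, was chosen with earlier results of these data known. Its height above all features is thus not independent of that choice. The shares of 27.2% and 5.96% are the background for the counts of each list below. Below the receptors and enzymes already named stood Siglech (1818 CPM), a sialic acid-binding lectin, Fcrls (1790 CPM), an Fc receptor-like protein of mouse microglia, Tgfbr1 (1468 CPM) and Olfml3 (1220 CPM), a secreted glycoprotein. The lowest of the list were Slc2a5, a fructose transporter, at 376 CPM, Crybb1 at 455 CPM and Sall1 at 458 CPM.

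Transcription factors of the lineage lay below these effector genes, with 27 of 31 members at 10 CPM or more, 19 at 100 CPM or more, and a median of 155 CPM. Mef2c, a MADS-box factor, led at 1340 CPM (97.03% of cells), followed by the large Maf factor Maf (1233 CPM), Mef2a (1024 CPM) and the zinc finger repressor Zeb2 (956 CPM). Irf8 (ENSMUSG00000041515), an interferon regulatory factor needed for microglial development, stood at 721 CPM (702 to 740), with a median of 2 UMIs per cell. Its level lay below that of Zeb2 and above those of Sall1 at 458 CPM and Spi1 at 434 CPM (419 to 449), beyond counting error. The last pair overlapped in their intervals. Pparg, a nuclear receptor of lipid metabolism, was at 0, and Nr1h3, which encodes LXR-alpha, stood at 1.04 CPM.

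Signal-dependent factors were lower again, with 29 of 37 members at 10 CPM or more and a median of 51.9 CPM. Klf3 (377 CPM), Jun (296 CPM), the glucocorticoid receptor Nr3c1 (275 CPM) and Junb (249 CPM) led. Irf2 (245 CPM), Nfe2l2 (244 CPM), Jund (226 CPM) and Nfkb1 (204 CPM) followed. Immediate early genes, which respond within minutes to stimulation and to tissue handling, had 14 of 25 members at 10 CPM or more and a median of 13.6 CPM. Btg2 (298 CPM) and Jun led, while Fos stood at 2.21 CPM, Egr1 at 11.3 CPM, Nr4a1 at 0.65 CPM and Fosb at 0.26 CPM.

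Among the G protein-coupled receptors 3 stood above 1000 CPM. Cx3cr1, the fractalkine receptor, reached 4547 CPM (4499 to 4594; 99.9% of cells), P2ry12 reached 3675 CPM and Gpr34, a lysophosphatidylserine receptor, 2275 CPM. The nucleotide receptors P2ry13 and P2ry6 stood at 645 and 437 CPM. Adgrg1, an adhesion receptor, stood at 302 CPM and Gpr183, an oxysterol receptor, at 272 CPM. In all 23 of 41 members reached 10 CPM, where 27.2% of all features did, with a median of 43.3 CPM. Adora2a, Ccr7, Ackr1, Fpr1, Fpr2, Ptger2 and Gpr132 were at 0. Ccr2, the chemokine receptor of monocytes, stood at 4.42 CPM.

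Cytokine and growth factor receptors reached 10 CPM in 28 of 36 members, where 27.2% of all features did, with a median of 83.9 CPM. Csf1r, which transmits the survival signal of CSF1 and IL-34, stood at 3716 CPM and Ifngr1, a chain of the interferon gamma receptor, at 1148 CPM (96.3% of cells). Tgfbr1 at 1468 CPM stood above its partner chain Tgfbr2 at 349 CPM. Il6ra stood at 431 CPM, Ifngr2 at 247 CPM, Il10ra at 219 CPM and Csf3r at 218 CPM. Il18r1, Kit and Pdgfra were at 0, and Flt3 stood at 1.17 CPM.

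Sensing of lipids and microbial products was dominated by the TREM2 complex and the partners of toll-like receptors. The signalling adaptor Tyrobp reached 2567 CPM, Ly86, which pairs with CD180, 2052 CPM, and Trem2, the lipid receptor that signals through Tyrobp, 1771 CPM. The co-receptor Cd14 (314 CPM) and Cd180 (220 CPM) followed. Tlr7, which senses single-stranded RNA, was the highest toll-like receptor at 208 CPM, above Tlr3 (116 CPM), Tlr2 (85.4 CPM), Tlr13 (84.1 CPM) and Tlr4 (72.6 CPM). The C-type lectins Clec4a2 and Clec5a stood at 144 and 130 CPM. Of 27 members, 20 reached 10 CPM, and Tlr8, Trem1 and Clec12a were at 0. Clec7a was not analysed here.

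Receptors for engulfment and adhesion reached 10 CPM in 17 of 29 members, where 27.2% of all features did. The Fc receptor gamma chain Fcer1g stood at 2054 CPM, the integrin Itgb5 at 1121 CPM and the Fc receptor Fcgr3 at 1091 CPM. Itgam (CD11b) stood at 521 CPM, Fcgr1 at 403 CPM, Itgb1 at 357 CPM and Lrp1 at 345 CPM. Among the TAM receptors for apoptotic cells, Mertk stood at 504 CPM (77.0% of cells), Axl at 8.19 CPM and Tyro3 at 0. Their ligands Pros1 and Gas6 stood at 313 and 112 CPM. Cd36, Marco, Timd4, Itgal and Vsig4 were at 0. The list of inhibitory and checkpoint receptors reached 10 CPM in 18 of 28 members, where 27.2% of all features did. It also took in other surface proteins, among them Siglech, its highest member, and the tetraspanins Cd53 (746 CPM) and Cd37 (675 CPM). The other leading members were Vsir (1515 CPM), Lair1 (932 CPM), Sirpa (788 CPM), Cd33 (481 CPM) and Havcr2 (313 CPM). Tigit and Cd40 were at 0, and Cd274 (PD-L1) stood at 5.33 CPM.

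Channels, transporters and ectoenzymes reached 10 CPM in 26 of 30 members, with a median of 107 CPM. Clic1 (544 CPM), Entpd1, the ectonucleotidase CD39 that removes ATP and ADP (542 CPM), Slco2b1 (505 CPM), the nucleoside transporter Slc29a3 (444 CPM) and Slc2a5 (376 CPM) led. Nt5e, the enzyme that acts after CD39, had 0.26 CPM, and P2rx4 and P2rx7, the ATP-gated channels, stood at 116 and 111 CPM. Kcnk13, a potassium channel of microglia, stood at 87.5 CPM.

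Secreted products were unevenly distributed. Complement reached 10 CPM in 4 of 20 members, among them the 3 chains of C1q, where 27.2% of all features did. Of the members below 10 CPM, Masp1 stood at 4.16 CPM, C4b at 2.08 CPM, Cfp at 1.17 CPM and C3 at 0.39 CPM, and 9 members were at 0. C1q thus stood far above the later components that it activates. In a cell, C1qa UMIs ranged from 0 to 106 with a median of 30, C1qb from 1 to 89 with a median of 25, and C1qc from 0 to 64 with a median of 19.

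Other secreted proteins reached 10 CPM in 20 of 44 members, where 27.2% of all features did. After Cst3 and Sparc came the lysosomal and secreted precursors Psap (2049 CPM) and Grn (1160 CPM, progranulin), Olfml3 and Timp2 (524 CPM). Apoe, the lipid carrier, stood at 438 CPM and the protease inhibitor Serpine2 at 435 CPM. Nrros, which holds latent TGF-beta1 at the microglial surface, stood at 138 CPM. Cytokines and growth factors reached 10 CPM in 12 of 41 members, near the 27.2% of all features. Tgfb1 led at 417 CPM (71.8% of cells), followed by Pdgfb (204 CPM), Il16 (111 CPM), Il1a (88.2 CPM), Tnfsf12 (81.5 CPM), Vegfb (61.9 CPM), Pdgfa (50.9 CPM) and Il18 (48.3 CPM). Below these stood Il6 at 11.2 CPM, Tnf at 5.85 CPM and Il1b at 5.2 CPM. Igf1, a growth factor produced by microglia of the young brain, stood at 0.78 CPM. In this list 14 members were at 0, among them Il10, Il12a, Il12b, Ifng, Ifnb1, Il34 and Bdnf.

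Chemokines reached 10 CPM in 8 of 23 members, not far above the 27.2% of all features. Ccl6 (158 CPM, 33.0% of cells), Ccl9 (145 CPM, 30.5%) and Cxcl16 (50.6 CPM, 14.1%) were spread over many cells. Ccl4 stood at a like level, 112 CPM, but in 2.93% of cells, and Ccl5 at 10.7 CPM in 0.255% of cells. Ccl12 (69.9 CPM), Ccl3 (50.03 CPM) and Ccl24 (10.8 CPM) complete the 8, while 8 others, among them Cxcl1, Cxcl2 and Ccl22, were at 0.

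**Figure D3:**
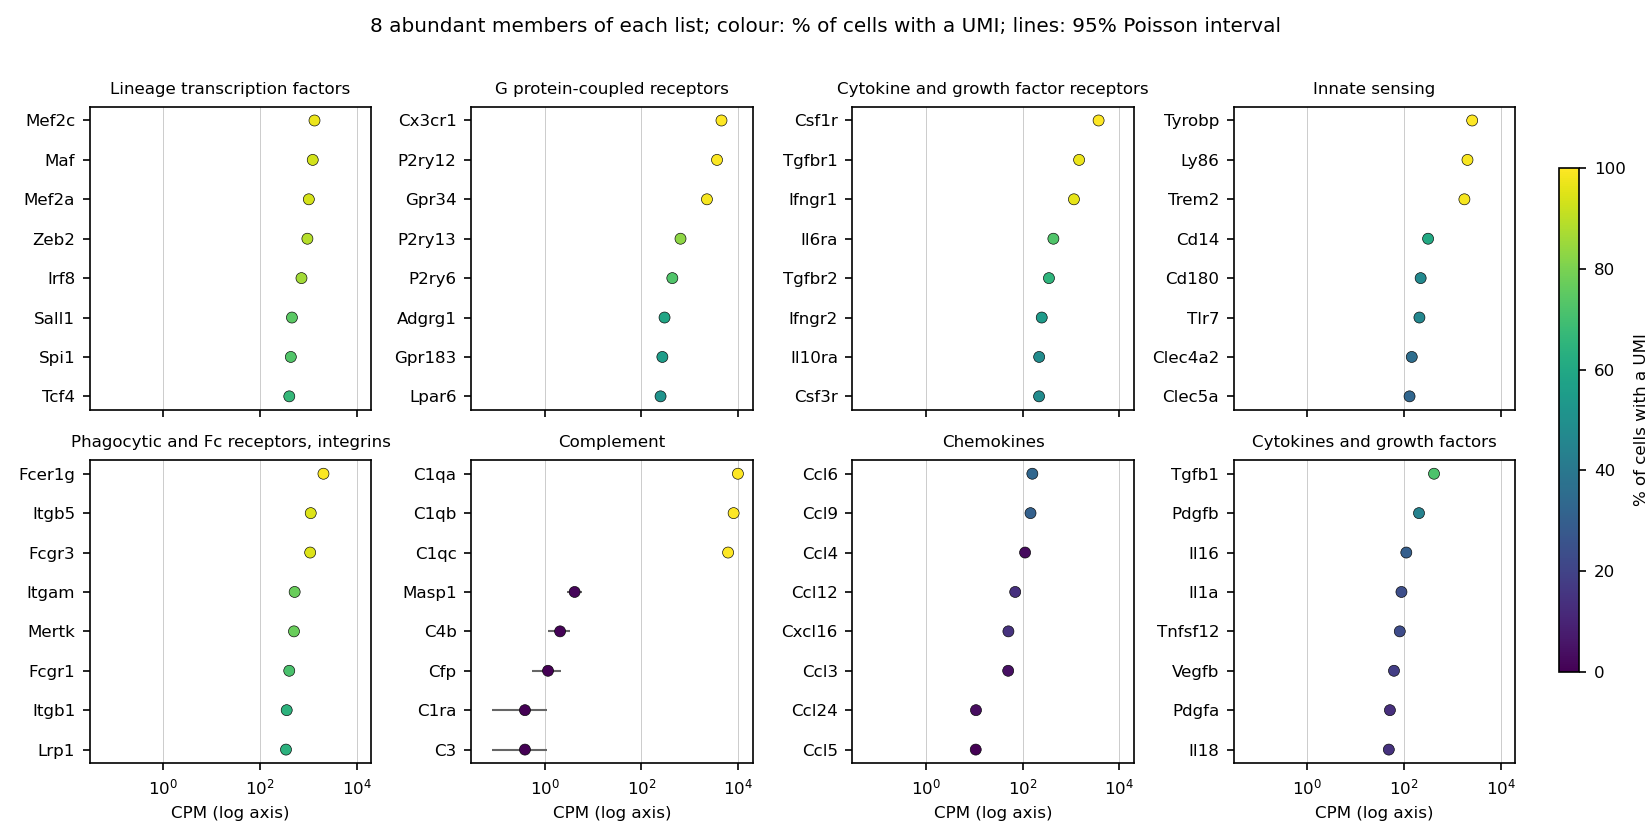
Level in CPM (x axis, log) of 8 abundant members of each of 8 lists (y axis, 1 panel per list) over 2353 WT cells; lines are 95% Poisson intervals and colour is the share of cells with a UMI. The C1q chains lie between 6230 and 9950 CPM and the receptor Cx3cr1 at 4547, while cytokines stay at 417 or below and Ccl4 combines 112 CPM with 2.93% of cells.

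Most lysosomal genes were high. Of 35 members 33 reached 10 CPM and 29 reached 100 CPM, with a median of 518 CPM and 4.59% of UMIs. Behind Ctsd, Ctss and Lgmn stood Laptm5, a lysosomal membrane protein of blood lineage cells, at 2518 CPM. Ctsa, the protective protein of lysosomal glycosidases, whose second listed promoter is shown above, stood at 518 CPM. Gla, alpha-galactosidase, at 3.51 CPM and the osteoclast protease Ctsk at 0.52 CPM fell short of 10 CPM. Cytoskeletal genes reached 10 CPM in 14 of 15 members, the exception being the intermediate filament Vim at 4.16 CPM.

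Antigen presentation differed between its classes. Class I genes reached 10 CPM in 10 of 11 members, with B2m at 1142 CPM, H2-D1 at 373 CPM, H2-K1 at 303 CPM, Psmb8 at 179 CPM and Tapbp at 150 CPM. Class II genes reached it in 6 of 9, where 27.2% of all features did. The chaperones H2-DMa and H2-DMb1 stood at 245 and 125 CPM and H2-Oa at 53.2 CPM, but the antigen-binding chains H2-Ab1, H2-Aa and H2-Eb1 at 10.4, 2.08 and 2.08 CPM, and Ciita, the activator of class II genes, was at 0. Cd74, the invariant chain, stood at 33.8 CPM in 6.12% of cells.

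Of the lists tied to response states, interferon response and cell cycle genes had medians of 10.4 and 2.66 CPM, and genes of the disease-associated state one of 225 CPM. Interferon response genes reached 10 CPM in 14 of 27 members, where 27.2% of all features did, among them Trim30a (123 CPM), Bst2 (103 CPM), Parp14 (81.5 CPM) and Herc6 (44.8 CPM), while Rsad2 stood at 0.13 CPM. Genes of the disease-associated state reached it in 16 of 23, and 13 of them reached 100 CPM. That list contains genes that microglia express at rest, such as Fth1 (2656 CPM), Tyrobp, Trem2, Ctsb (1577 CPM) and Ctsz (1406 CPM), while Spp1 stood at 5.07 CPM, Itgax at 4.94 CPM, Cst7 at 7.54 CPM, Lpl at 18.7 CPM and Gpnmb at 0.52 CPM. Cell cycle genes reached it in 5 of 20, near the 27.2% of all features, led by Hmgb2 (50.9 CPM), Stmn1 (49.6 CPM), Mcm3 (36.1 CPM), Pcna (22.4 CPM) and Tyms (14.2 CPM), while Mki67 stood at 1.82 CPM.

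Variation between cells beyond counting noise was measured by a dispersion index, the mean squared deviation of a gene's UMIs from what each cell's depth gives, in units of the counting variance, so that counting alone gives 1. Among 5324 genes with at least 0.1 UMI per cell, the median index was 1.055 and the middle 90% ran from 0.974 to 1.244. An index of at least 1.5 was reached by 101 genes (1.9%), and one of at least 1.2 by 400 (7.51%). At equal relative spread the index grows with the level: 77 of the 450 genes with at least 1 UMI per cell passed 1.5 (17.1%), and 24 of 4874 below that. The 101 genes comprise 8 mitochondrial and 13 ribosomal protein genes. When each gene was scored without the 24 cells (1%) furthest above what their depth gives, 38 genes still passed. By role, 0 of 15 phagocytic receptors, 1 of 25 cytokine receptors and 6 of 21 G protein-coupled receptors passed. Among state genes 14 of 25 passed, among lysosomal genes 7 of 33 and among chemokines 5 of 6. Beside these counts stand 1.9% of all tested genes and 17.1% of those with at least 1 UMI per cell. Level differs between the lists and was not separated from role. Scored without their 24 cells, the 5 chemokines fell below 1.5: Ccl4 (1.11), Ccl3 (1.06), Ccl12 (1.16), Ccl9 (1.23) and Ccl6 (1.27).

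**Figure D4:**
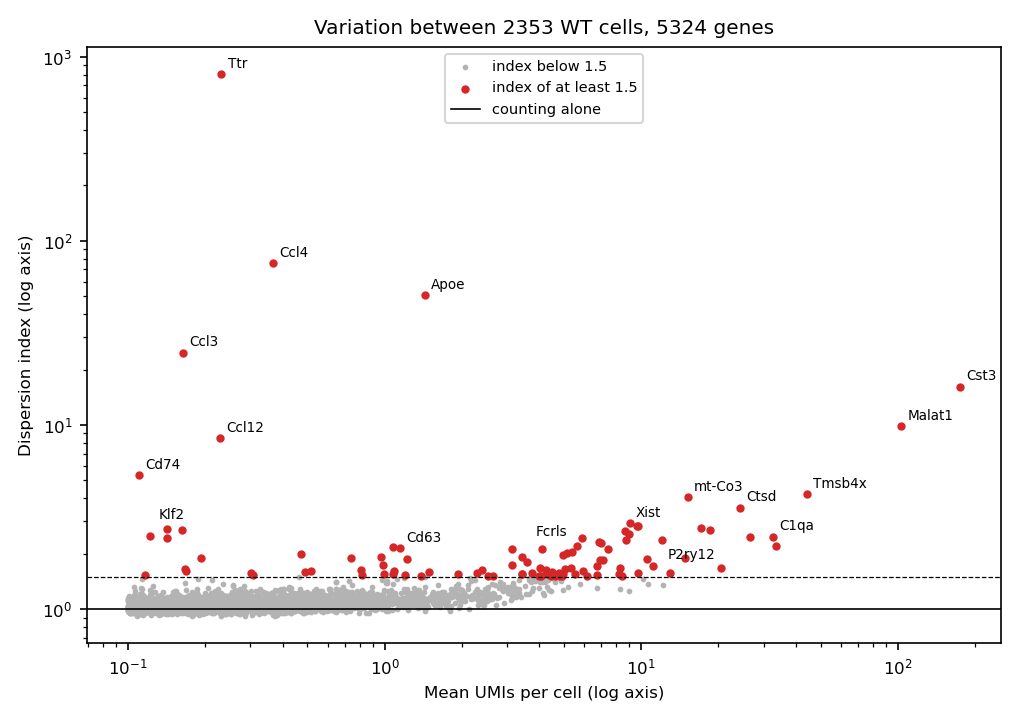
Dispersion index (y axis, log) against mean UMIs per cell (x axis, log) for 5324 genes over 2353 WT cells; red points are the 101 genes at 1.5 or above (dashed line), and the solid line at 1 is counting alone. Ttr, Ccl4, Apoe and Ccl3 stand above an index of 24, and Cst3 and Malat1 lead among abundant genes.

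The highest index, 803.9, belonged to Ttr, the transport protein of thyroid hormone and retinol, and came from 1 cell. That cell held 542 of the 544 Ttr UMIs, 24.7% of its 2197 UMIs, and 24 UMIs of Enpp2. It had 2 UMIs of the 10 microglia markers, where every other member had at least 10 and the median was 87. No UMI of C1qa, C1qc, Cx3cr1, Csf1r or Tmsb4x was found in it, and it held the lowest Cst3 count, 5. It was the only member without a C1qa UMI. Without this cell Ttr stood at 0.26 CPM, and 100 genes passed the index of 1.5.

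Among widely expressed genes, Cst3 (index 16.2), Malat1 (9.84), Tmsb4x (4.20), Ctsd (3.56), Xist (2.93), Actb (2.76), Ctss (2.69) and Fth1 (2.67) varied most, together with mt-Co3 (4.07), mt-Atp6 (2.82), mt-Cytb (2.82) and mt-Co2 (2.56). Their spread was modest in relative terms: the excess coefficient of variation, the relative spread after counting noise was removed, was 0.29 for Cst3, 0.28 for Malat1 and 0.44 for mt-Co3. C1qa and C1qc were steadier, at 0.21 and 0.18. The relative spread of P2ry12 was 0.33 and that of Fcrls 0.48. Fcrls was absent from 123 cells where counting gives 15.2. At the quiet end, among genes with at least 1 UMI per cell, stood the calcium-entry regulator Saraf (0.973), the proton pump subunit Atp6v1g1 (0.973), Tmem59 (0.978), the folding enzyme Ppib (0.98) and the vesicle protein Tmed9 (0.986), all within what counting gives.

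Apoe was seen in many cells but concentrated in some of them. It had an index of 50.8, and the excess coefficient of variation was 4.87. No Apoe UMI was seen in 1529 cells, where counting at its mean would leave 603.7 cells without one. At the other end 63 cells held 10 or more Apoe UMIs, where counting gives 0.1, and these cells held 43.8% of its UMIs. The highest cell had 308 Apoe UMIs and the next 57. Lyz2, lysozyme, showed the same form at smaller size, with an index of 1.89, 1391 cells at 0 and 1149.1 given by counting.

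The chemokines Ccl4 (index 75.5) and Ccl3 (24.7) were held by very few cells. Of the Ccl4 UMIs, 87.9% lay in 11 cells with 10 or more, whose median depth was 3905 UMIs. The highest of them had 173 and the next 125. Counting at the mean level would give 0 such cells. In these 11 cells Ccl3 stood at 5473 CPM (4784 to 6233) against 20.6 CPM (17.6 to 24.1) in the other members, Tnf at 193 CPM (83.3 to 380) against 4.8 CPM (3.4 to 6.7), and Egr1 at 627 CPM (410 to 918) against 8.0 CPM (6.1 to 10.2). P2ry12 was lower than in the other members, at 1471 CPM (1125 to 1889) against 3687 CPM, as was Tmem119, at 723 CPM (488 to 1033) against 1382 CPM. Sall1 stood at 96.4 CPM (26.3 to 247), from 4 UMIs, against 460 CPM. Cst3 was higher, at 63888 CPM (61478 to 66368) against 53268 CPM. The other microglia markers were not compared in these cells. These cells were picked by Ccl4 after the values were seen, 1 pool supplied them, and the intervals cover counting only.

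More cells than counting gives were rich in UMIs of the interferon or the cell cycle list, although most UMIs of both lists lay in other cells. In 42 cells the interferon list summed to 10 or more UMIs, where counting gives 0.8, and these held 15.1% of its UMIs. Ifit3 had 45 UMIs in them and 35 in all other members, Oasl2 had 19 and 6, and Bst2 81 and 711. In 6 cells the cell cycle list summed to 10 or more, where counting gives 0, and these held 15.6% of its UMIs. They held 29 of 33 UMIs of the topoisomerase Top2a, all 15 of Ube2c and 12 of 14 of Mki67. By contrast Pcna had 5 UMIs in these cells and 167 in the rest, and Mcm3 5 and 273. Both sets of cells were picked by the sum of the list whose genes are counted here. High counts in them thus follow in part from that choice.

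Covariation was described by Pearson correlations of deviations over 2353 cells of the same library, after the depth of each cell was taken out. Of 5050 pairs among the 101 varying genes, 180 reached 0.25 (3.56%), and the median was 0.0013. These correlations share the cells' totals and the pool. They fell into 4 groups of at least 3 genes. Mitochondrial genes formed a group of 8, with r up to 0.659 between mt-Co2 and mt-Co3. A group of 24 joined ribosomal protein genes, Eef1a1, Fau and Tpt1, with r up to 0.38 (Rps4x with Tpt1), to a set of lysosomal and iron-storage genes. Within that set Ctsb correlated with Cd63 at 0.46, with Ctsd at 0.40, with the ferritin light chain Ftl1 at 0.389 and with Cd9 at 0.371. The link between both sets ran through the ferritin heavy chain Fth1, which correlated with Ftl1 at 0.321 and with 3 genes of the ribosomal set at 0.25 or more, while Ctsd had a mean r of 0.008 with the rest of the group.

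The group of 12 held the abundant products of the microglial state. Its closest links were C1qa with C1qb at 0.472, C1qb with Cst3 at 0.444, Ctss with Cst3 at 0.374, C1qc with C1qa at 0.37 and Itm2b with Cst3 at 0.367, and it also took in Tyrobp, Cd81, Psap, H2-D1 and H2-K1. The promoter windows of C1qb and C1qc shown above lie on chromosome 4 within the same cluster of C1q genes. The last group held Ccl4, Ccl3, Cd83, Id2 and Actg1, with Ccl3 and Ccl4 at 0.882 and 7 of the 10 pairs at 0.25 or more. Without the 11 cells of 10 or more Ccl4 UMIs, only Ccl3 with Ccl4 stayed above it, at 0.284, and the other pairs lay between 0.004 and 0.143. Outside these groups, P2ry12 and Fcrls were linked at 0.251 and Hmgb2 and Stmn1 at 0.503. The lowest values were those of Malat1 with Tmsb4x (-0.358) and with Cst3 (-0.282). Next came P2ry12 with Fth1 (-0.25), Malat1 with Actb (-0.235) and Cx3cr1 with Fth1 (-0.227).

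**Figure D5:**
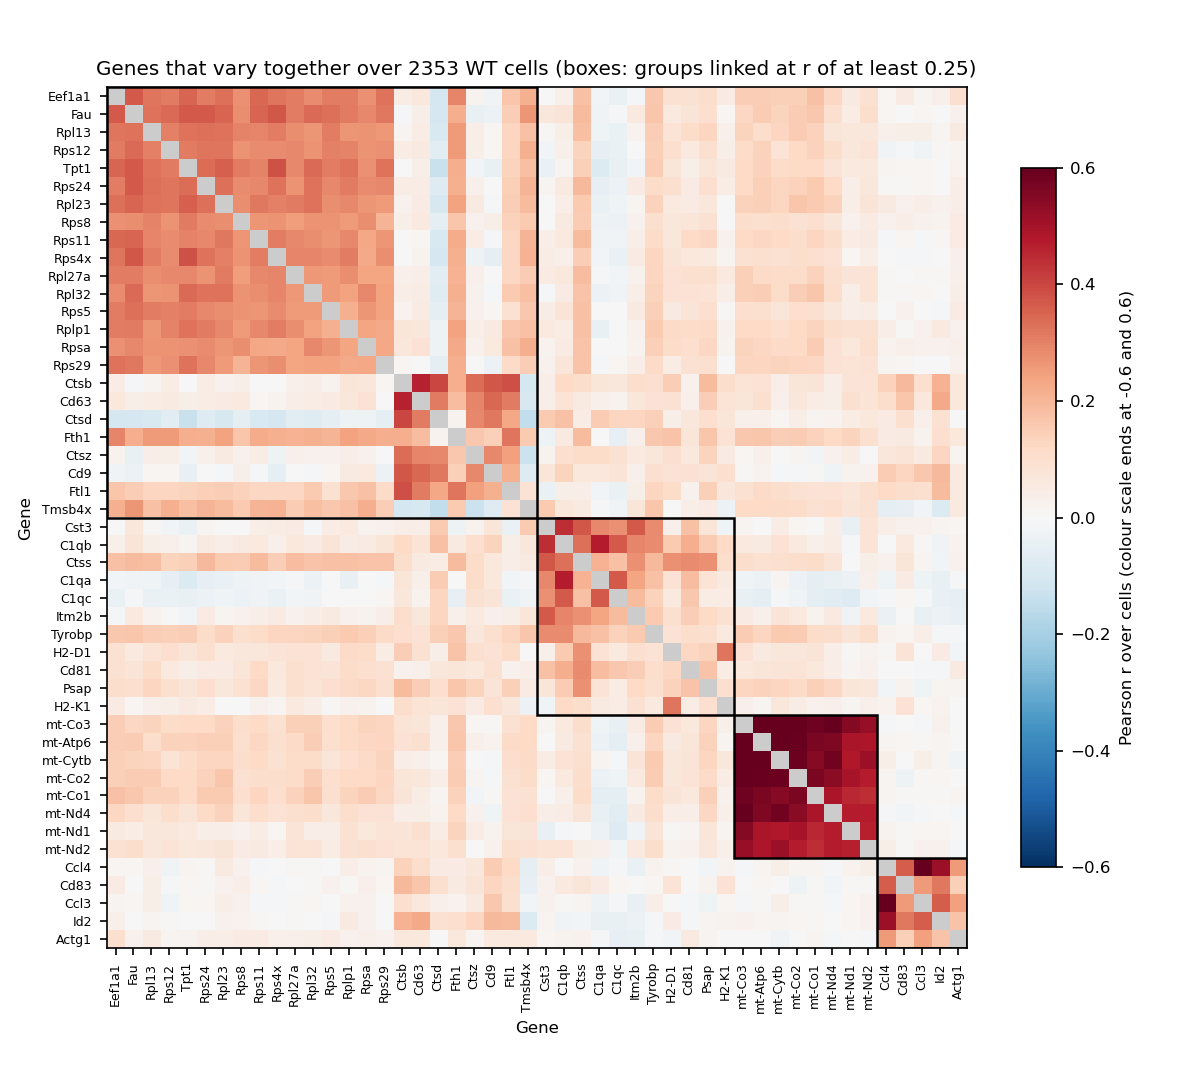
Pearson r over 2353 WT cells (colour, scale ending at -0.6 and 0.6) between genes of the 4 groups linked at r of at least 0.25 (both axes, genes in the same order; boxes mark groups). The mitochondrial box is the darkest, the first box splits into ribosomal and lysosomal blocks joined by Fth1, and the C1q and Cst3 box holds values up to 0.472.

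Levels of most genes differed little across the depth range that chose the members, given here as a description. Cells of 2000 to 3000 UMIs numbered 1104, those of 3000 to 4000 numbered 831 and those of 4000 to 6000 numbered 418. A gene was taken if it had at least 50 CPM in the shallowest or the deepest class. Over these 3973 genes, the ratio of the deepest to the shallowest class had a median of 1.0 and a middle 90% from 0.834 to 1.21. It was at least 1.5-fold higher for 7 genes (0.176%) and lower for 4 (0.101%). The 7 were Ccl4 (ratio 8.94), Ccl3 (3.20), Stmn1 (1.96), D17Wsu92e (1.79), Calm3 (1.57), Mt1 (1.57) and Ccl12 (1.55). Without the 11 cells of 10 or more Ccl4 UMIs, 4 genes were higher. Lower were Chtf8 (0.626), Zfp658 (0.646), Sacm1l (0.656) and Ttr, all of whose UMIs lay in the shallowest class. Of these higher and lower genes, only Mt1 reached 50 CPM in both classes. Each of the others passed the minimum only through the class where it was higher, as Chtf8 with 50.5 CPM against 31.6 CPM. Their ratios thus follow in part from that choice. P2ry12 stood at 3697 CPM in the shallowest class and 3553 CPM in the deepest, Irf8 at 746 and 757 CPM, and Sall1 at 466 and 447 CPM.

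Malat1 stood lower in deeper cells. It was at 44932 CPM in the 285 WT cells of 1000 to 2000 UMIs, at 35038 CPM in members of 2000 to 3000 UMIs, at 29438 and 29920 CPM in those of 3000 to 4000 and 4000 to 6000, and at 22015 CPM in the 666 cells above 6000. Cst3 showed no such order, with 50580, 51259, 56751, 51433 and 44874 CPM in the same classes. The part of depth in these levels was not tested.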

How the data were processed

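Droplet single-cell RNA was measured in 1 WT library and in 1 library titled IRF8KO, each from 3 pooled mice. The authors deposited whole-number UMI counts per gene and barcode, written by software 3.1.0 per the file headers. Per the submitters' processing notes, bcl2fastq, Cell Ranger 3.1, Scanpy and build mm10 were used. No source used here gives the annotation or the cell calling. Per the labels' protocols, a full-length kit was also used, but the matrices have droplet form. The lowest WT barcode held 500 UMIs.

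UMIs were summed over members and scaled to CPM with Python 3.11.15, numpy 2.4.6, scipy 1.17.1 and pandas 2.3.3. A gene at 0 UMIs is given the limit of 3 counts, 0.39 CPM or 0.127% of cells. Variation was the mean squared Pearson residual under Poisson sampling at each cell's total, for genes with at least 0.1 UMI per cell, checked on simulated data. Correlated groups are genes linked at r of at least 0.25. Gene positions came from GENCODE M21 on GRCm38, where 31011 of 31053 identifiers matched. Doublets were scored with scrublet in scanpy 1.11.5. The caller marked 0 cells, so none were removed, and an alternative left out the 87 highest scores (56 members).

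The members and gene lists were chosen with earlier results of these data known. Named genes were the markers, the 20 most abundant genes, the leading 5 or 8 members of each list and those at 0, the 20 highest and 5 lowest dispersion indices, the genes past 1.5-fold across depth, and the correlated groups. Some genes that this rule takes are not reported here, though they count in the totals. Other genes named, such as Fos, Nt5e, Axl, Igf1 and the marker genes of other cell types, were chosen after their values were seen. Alternatives changed the UMI window, mitochondrial maximum, doublets, scaling, thinning and thresholds.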

Additional observations from a re-analysis of the deposited data

Results flagged for a closer look

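A signal appeared in WT barcodes outside the members. The 5 erythroid markers, 4 haemoglobin genes and Alas2, summed to 23729 UMIs in the 1151 barcodes that the rule left out, or 0.216% of their UMIs, against 0.000273% of UMIs in the members. Only 26 of the 1151 barcodes had such a UMI, and 5 of them held 23706 (99.9%).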

How the results depend on the processing

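No paired analysis was possible because the WT cells are 1 pooled library, so no replicate could be left out either. The share of UMIs in the 20 most abundant genes, 18.8% as reported, was 19.0% in cells of 2500 to 5000 UMIs and 17.7% in all cells of at least 1000 UMIs. The 8440 genes with at least 10 CPM became 14583 with no minimum, and the 377 genes seen in at least 50% of thinned cells became 650 without thinning. The 101 varying genes became 400 at an index of 1.2, 38 without the 1% of cells furthest above expectation for each gene, and 45 with every cell thinned to 2000 UMIs, and lay between 84 and 126 under the other alternatives. At 2-fold, 2 genes were higher across depth and 1 lower. The 180 pairs became 51 at r of at least 0.35 and 60 after thinning. Of 142 named genes, only Ttr (70.7 CPM, 0.26 without 1 cell), Ccl4 and Ccl3 (112 and 50.03 CPM, 13.6 and 20.6 without the 11 cells of 10 or more Ccl4 UMIs), Cfp (1.17 CPM, 0.72 in cells of 2500 to 5000 UMIs) and C1ra (0.39 CPM, 0.76 in all cells of at least 1000 UMIs) moved by over 1.5 times under any alternative run. Leaving out the 10 most abundant genes from the totals raised CPM by 1.18 times, and leaving out mitochondrial and ribosomal protein genes by 1.1 times. The alternatives without the 11 Ccl4 cells, without the cell led by Ttr and without cells whose barcode is in the other library were chosen after seeing the data; they gave 91, 100 and 101 varying genes, and 4, 3 and 5 genes lower across depth. Without the 11 Ccl4 cells, 4 genes instead of 7 were higher across depth. Counting limits levels below 0.39 CPM, and 1 library gives no spread between animals.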
